A study of Mus musculus with 7 samples.

Results

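The nuclear genes of mitochondrial oxidative phosphorylation were followed across 7 RNA libraries of mouse granulocytes. Granulocytes are white blood cells with granules in their cytoplasm, a class made up mostly of neutrophils. How far these libraries were neutrophils is not given by that name, and their neutrophil markers, given below, differed widely. The libraries count tags at the 3′ ends of polyadenylated transcripts, so a level is not divided by transcript length and is compared here between libraries, not between genes. Members were the genes of the count table whose symbol begins with Nduf, Uqcr, Cox4, Cox5, Cox6, Cox7, Cox8 or Atp5, or is Sdha, Sdhb, Sdhc, Sdhd, Cyc1 or Cycs, without symbols that contain -ps. The rule found 99 of 51789 genes, and no measured value entered it. They comprised 36 genes of complex I, 8 complex I assembly factors, 4 of complex II, 9 of complex III, cytochrome c, 20 of complex IV with its paralogs, 17 of complex V and 4 processed pseudogenes that carry such symbols. Alox15 knockout had 3 libraries and Alox15 wild type 4, and all 7 carried the label untreated. Alox15 encodes arachidonate 15-lipoxygenase, which oxygenates polyunsaturated fatty acids. The series title concerns ferroptosis of neutrophils in tumours. The labels state neither the organ the cells came from, how they were purified, the strain and age of the mice, nor which part of Alox15 is missing. They also do not say that replicates were separate animals. The p-values therefore reflect spread among 7 libraries that may in part be technical.

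In oxidative phosphorylation, complexes I and II pass electrons from NADH and succinate to ubiquinone, complex III passes them to cytochrome c, and complex IV passes them to oxygen. Complexes I, III and IV pump protons across the inner mitochondrial membrane, and complex V, the ATP synthase, uses the gradient to make ATP. Mature neutrophils hold few mitochondria and make most of their ATP by glycolysis, whereas dividing precursors and lymphocytes hold more. The mitochondrial genome encodes further subunits, and its transcripts were not analysed here.

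Library totals ran from 3228292 to 5657192 counts. Alox15 itself had 1, 0 and 0 counts in the knockouts and 0 in each wild-type library, so it does not check the labels. Knockouts 2 and 3 stood apart from the other 5 libraries: their sample descriptions carry another letter, and Xist, the X-inactivation RNA, was at 382 and 102 CPM in them. It was at 1.75 CPM in knockout 1 and between 0.896 and 6.11 CPM in the wild-type libraries. Ddx3y, on the Y chromosome, was at 0.306 and 0.195 CPM in knockouts 2 and 3, against 119 CPM in knockout 1 and between 19.3 and 108 CPM in the wild-type libraries. Sex, this letter and genotype therefore cannot be told apart for those libraries. Markers of mature neutrophils were present throughout, but T cell markers were too. All 12 mature neutrophil markers were detected in every library, and so were 9 of 12 T cell markers. The eosinophil peroxidase gene Epx and the epithelial gene Epcam were at 0 counts in all 7 libraries.

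The members' level differed more between libraries of one genotype than between genotypes. CPM, counts per 1000000 of the library total scaled by TMM factors, is used for levels throughout, with values in the order of the replicate numbers. Summed over the 99 members, the level was 16351, 15162 and 31437 CPM in the knockouts, against 14069, 21666, 18121 and 26627 CPM in wild type. Knockout 3 was the highest of all 7 libraries and wild type 1 the lowest, 2.23-fold apart, and the genotypes overlapped. The summed level averaged 20983 ± 9073 CPM in knockout (SD, n = 3) and 20121 ± 5333 CPM in wild type (SD, n = 4). On the log2 scale the difference of means, knockout minus wild type, was 0.018 with a pooled SD of 0.47 between libraries. It was -0.38 without knockout 3 and 0.21 without knockout 2. As a share of all counts, the members took 1.60, 1.53 and 3.02% in the knockouts, against 1.31, 2.45, 1.83 and 2.57% in wild type. The widest Wilson 95% interval of a single share ran from 2.56 to 2.59%, in wild type 4, so counting error was small beside the spread between libraries.

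**Figure D1:**
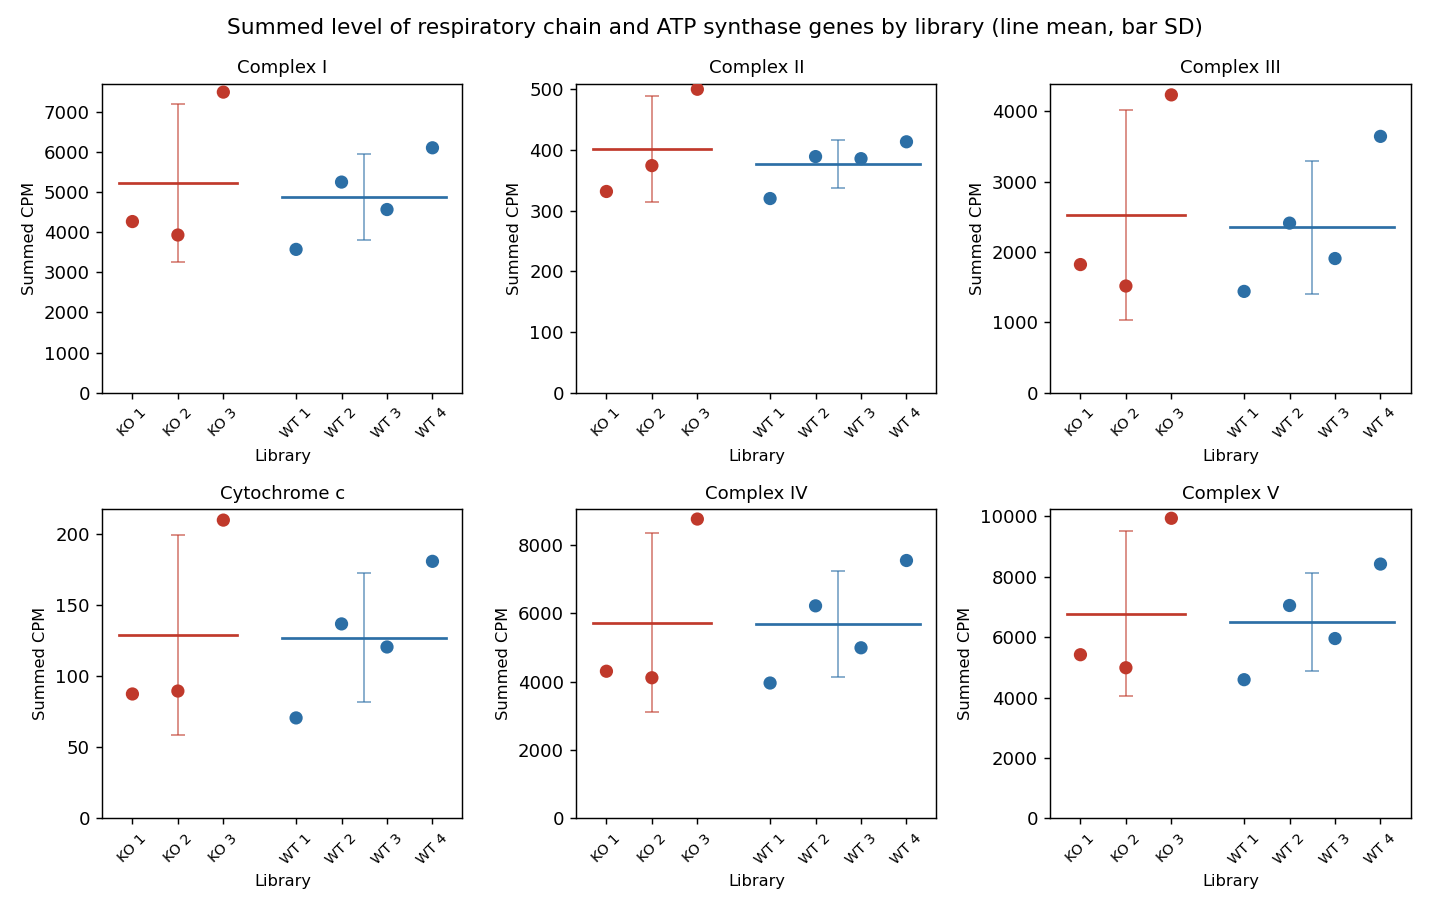
Summed CPM of the members of complexes I to V and of cytochrome c (y axes) in each knockout and wild-type library (x axes), with lines at group means and bars of 1 SD. Knockout 3 is the highest library in all 6 panels and wild type 1 the lowest in all 6, and the knockout and wild-type points overlap in each.

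Each respiratory complex showed the same order at its top and bottom. Complex I summed to 4267, 3931 and 7493 CPM in the knockouts, against 3573, 5251, 4566 and 6105 CPM in wild type. Complex II, succinate dehydrogenase, spanned the least, 1.56-fold, with 332, 374 and 500.1 CPM in the knockouts, against 320.0, 389, 386 and 414 CPM in wild type. Complex III, the cytochrome bc1 complex, spanned 2.94-fold, with 1823, 1517 and 4236 CPM in the knockouts, against 1441, 2412, 1908 and 3646 CPM in wild type. It was at 4236 and 3646 CPM in knockout 3 and wild type 4 and at or below 2412 CPM in the other 5 libraries. Complex IV, cytochrome c oxidase, summed to 4307, 4116 and 8759 CPM in the knockouts, against 3962, 6220.4, 4993 and 7546 CPM in wild type. Complex V summed to 5418, 4987 and 9933 CPM in the knockouts, against 4592, 7047, 5954 and 8418 CPM in wild type. The 8 assembly factors of complex I, the Ndufaf genes, summed to 98.2, 141 and 272 CPM in the knockouts, against 107, 171, 164 and 253 CPM in wild type. Their highest library was again knockout 3, but their lowest was knockout 1.

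The share of each complex within the members' counts moved less than the total. Complex I took 26.1, 25.9 and 23.8% in the knockouts, against 25.4, 24.2, 25.2 and 22.9% in wild type. Complex III took 11.1, 10.01 and 13.5% in the knockouts, against 10.2, 11.1, 10.5 and 13.7% in wild type, and was highest in knockout 3 and wild type 4. Complex II took 2.03, 2.47 and 1.59% in the knockouts, against 2.27, 1.80, 2.13 and 1.55% in wild type, with its lowest shares in those same libraries. Complex IV took 26.3 to 28.7% and complex V 31.6 to 33.1% of the members' counts over the 7 libraries.

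Of the 99 members, 90 had enough counts to be tested. Among these 90, knockout 3 was the highest library for 55, or 61.1%, against 16.3% of all 12506 genes tested. Wild type 1 was the lowest for 45, or 50%, against 20.2% of all genes, and knockout 2 the lowest for 29, or 32.2%, against 12.2%. No member had its highest level in knockout 1 or wild type 1. In knockout 3, 82 of the 90 stood above their own mean over the 7 libraries, and in wild type 4, 75 did. In wild type 1 only 3 did. The median deviation of the 90 from their own mean, in log2 CPM, was 0.52 in knockout 3 and 0.44 in wild type 4. It was -0.38 in knockout 2 and -0.54 in wild type 1, while over all genes tested it lay between -0.02 and 0.11. The members' range over the 7 libraries had a median of 2.62-fold, against 3.31-fold for all genes tested.

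**Figure D2:**
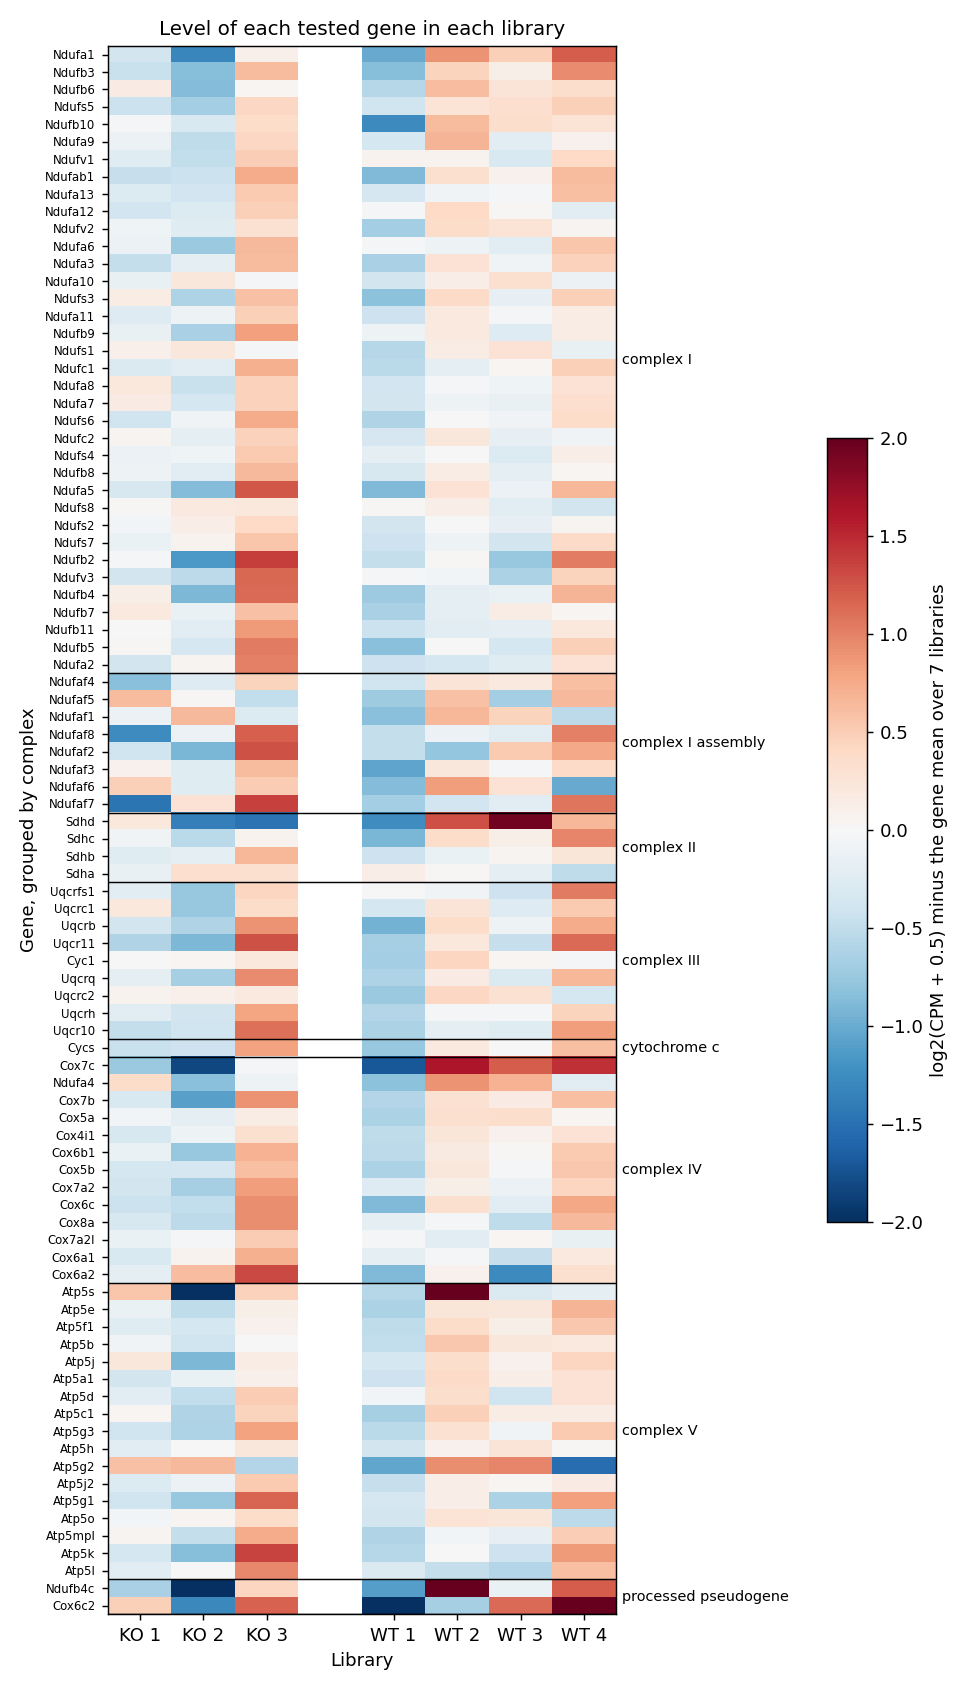
Each row is a tested member, grouped by complex, and each column a library, with colour giving log2(CPM + 0.5) minus the gene's mean over the 7 libraries, clipped at 2 in either direction. Most rows are red in knockout 3 and wild type 4 and blue in knockout 2 and wild type 1, and Sdhd, Cox7c and Atp5g2 depart from that pattern.

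The ribosomal protein share and the summed T cell and proliferation markers had the same highest and lowest libraries as the members. The other marker lists did not share both. Cytosolic ribosomal protein genes took 9.65, 10.3 and 21.4% in the knockouts, against 7.52, 15.1, 13.6 and 15.97% in wild type, with the same highest and lowest libraries. Mature neutrophil markers, 12 genes such as S100a8 and Cxcr2, summed to 24283, 15468 and 2289.8 CPM in the knockouts, against 29174, 2816, 12168 and 12861 CPM in wild type. They were lowest in knockout 3 and wild type 2 and highest in wild type 1. T cell markers, 12 genes such as Cd3d, summed to 634, 800.3 and 1619 CPM in the knockouts, against 556, 1191, 857 and 1118 CPM in wild type, highest in knockout 3 and lowest in wild type 1. Thy1 and Cd3d were the largest parts of that sum in knockout 3, at 639 and 441 CPM, against 224 and 93.5 CPM in wild type 1. Trac did not follow, with 64.3 CPM in knockout 3 and 69.3 CPM in wild type 1. Proliferation markers, 8 genes, summed to 1537, 2234 and 2722 CPM in the knockouts, against 1266, 2608, 2243 and 2631 CPM in wild type. Wild type 4 held both a high level of the members and 12861 CPM of mature neutrophil markers, so the orders of those measures were not simply opposite. The monocyte and macrophage list, with all 10 markers detected in each library, had 1257, 608 and 196 CPM in the knockouts, against 435, 163, 435 and 499 CPM in wild type. The B cell list, 3 of 6 markers detected in all libraries, had 354, 225 and 319.6 CPM in the knockouts, against 120.1, 358, 461 and 326 CPM in wild type. The erythroid list, 4 of 5 detected in all libraries, had 629, 688 and 2023 CPM in the knockouts, against 1056, 459, 2010.2 and 252 CPM in wild type. The eosinophil list, 2 of 5 detected in all libraries, had 13.6, 13.8 and 2.14 CPM in the knockouts, against 17.9, 2.35, 3.97 and 5.56 CPM in wild type, and the tumour and stromal list, 4 of 7, had 183, 124 and 208 CPM in the knockouts, against 84.3, 193, 67.7 and 77.0 CPM in wild type. In bulk RNA, fewer cells of a type and less RNA per cell cannot be told apart, and the part of these measures in the members' levels was not tested.

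The members' transcripts are short. The longest basic coding transcript of the 88 tested members that have one had a median of 963 nt, against 3097 nt for all tested genes with a length. Among all genes tested with transcripts at or under 963 nt, 550 genes, the median log2 deviation from each gene's mean was -0.14, -0.20 and 0.40 in the knockouts, against -0.34, 0.01, 0.03 and 0.34 in wild type. Among the 10224 genes with longer transcripts it was 0.07, 0.11 and -0.04 in the knockouts, against 0.00, 0.01, 0.08 and 0.03 in wild type. Short transcripts as a class, the members among them, were thus high in knockout 3 and wild type 4. The 44 members with transcripts over 963 nt had medians of -0.12, -0.30 and 0.49 in the knockouts, against -0.50, 0.21, -0.04 and 0.38 in wild type. The 44 shorter ones had -0.27, -0.42 and 0.64 in the knockouts, against -0.55, 0.20, -0.07 and 0.44 in wild type. By the length of the longest annotated transcript, longer members followed the same order as shorter ones. Which transcript of each gene gave the tags was not tested, so this split may not separate long from short transcripts. Whether RNA quality or fragment selection differed between libraries was not tested.

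**Figure D3:**
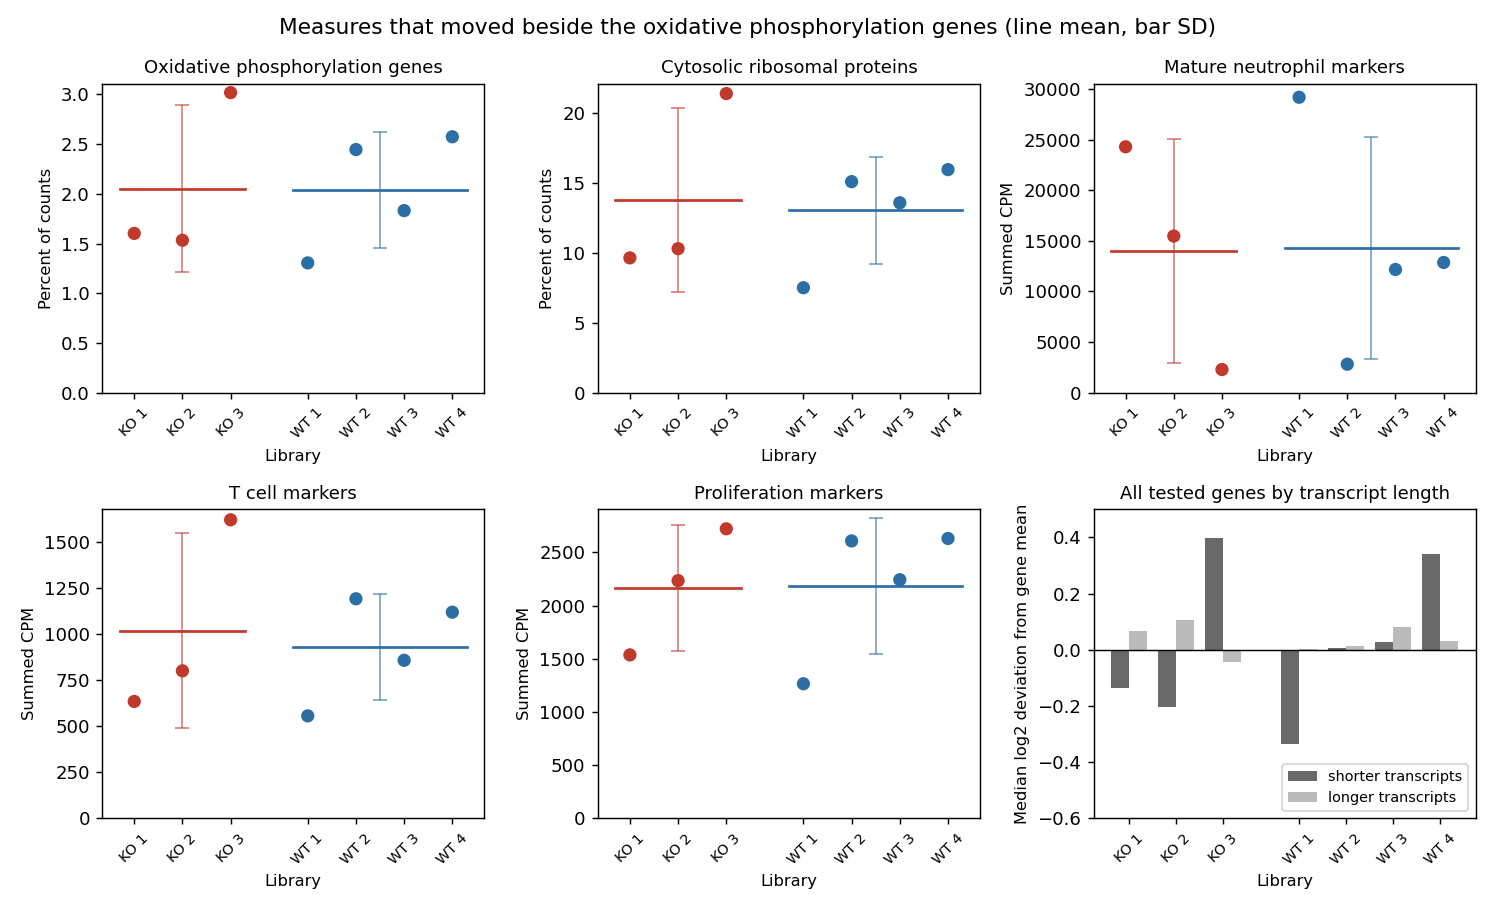
By library (x axes): percent of counts in the 99 members and in cytosolic ribosomal protein genes, summed CPM of mature neutrophil, T cell and proliferation markers, and the median log2 deviation from the gene mean for all tested genes with transcripts up to 963 nt and over it; lines are means and bars 1 SD. The members' share and the ribosomal share both peak in knockout 3, where mature neutrophil markers are lowest.

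Promoters of members were inspected for motifs of factors known to act on respiratory genes: the palindromic motif of NRF1, which is the first run of capitals in the Cox6a1, Atp5k and Atp5g2 promoters shown here, its shorter form GCGCATG, which lies within it, the ETS factor GABP (CCGGAAG) and YY1 (AAGATGGC), on both strands of the 250 bases before and 50 after RefSeq start sites (GRCm38.p6). Of the 99 members, 77 matched a promoter, all of them protein-coding, 2 of them through a synonym. The full NRF1 letters were in 7 of 77 members, or 9.09%, against 1.07% of 27025 genes with a promoter and 2.49% of the 8948 tested here. The shorter form was in 20.8% of members, against 4.41 and 8.23%. The ETS letters were in 23.4% of members, against 9.93 and 21.9%, and the YY1 letters in 14.3%, against 3.19 and 5.69%. A match describes letters in a window, not a bound site. The tested members with the full NRF1 letters, Atp5g2, Atp5k, Cox6a1, Ndufa11, Ndufaf4, Ndufaf5 and Uqcrc1, had a median log2 fold change of 0.07, knockout over wild type, and the 66 tested members with a promoter but without the letters had 0.03.

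The promoters of 4 members that hold NRF1 letters are shown as examples. Of these, Cycs, Cox6a1 and Atp5k were highest in knockout 3 and Atp5g2 was low there. Members with the full letters that are not shown also differed. Ndufa11 was highest in knockout 3, at 202 CPM. Ndufaf4, Ndufaf5 and Uqcrc1 were highest in wild type 4, at 96.9, 9.27 and 155 CPM. Whether the letters bear on these levels was not tested. Each reads 5′ to 3′ on the gene's strand, with motif matches in capitals. They lie on the minus strand at chr6:50566520-50566819 (Cycs), chr5:115348909-115349208 (Cox6a1), chr5:108434350-108434649 (Atp5k) and chr15:102670998-102671297 (Atp5g2). Cycs holds the shorter NRF1 form on the opposite strand, and Cox6a1 and Atp5k hold the full form and an ETS match.
Cycs: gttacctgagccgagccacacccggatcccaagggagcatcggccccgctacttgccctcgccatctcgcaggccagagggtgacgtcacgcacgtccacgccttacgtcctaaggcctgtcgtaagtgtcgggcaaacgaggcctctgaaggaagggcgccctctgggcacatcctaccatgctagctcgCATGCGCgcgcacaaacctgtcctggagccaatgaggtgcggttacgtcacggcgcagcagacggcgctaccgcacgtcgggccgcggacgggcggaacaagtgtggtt
Cox6a1: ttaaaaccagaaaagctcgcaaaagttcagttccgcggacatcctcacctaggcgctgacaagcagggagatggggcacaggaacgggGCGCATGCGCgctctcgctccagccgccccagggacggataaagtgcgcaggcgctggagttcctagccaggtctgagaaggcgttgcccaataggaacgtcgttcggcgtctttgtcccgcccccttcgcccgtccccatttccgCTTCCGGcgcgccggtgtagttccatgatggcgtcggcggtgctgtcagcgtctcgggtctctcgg
Atp5k: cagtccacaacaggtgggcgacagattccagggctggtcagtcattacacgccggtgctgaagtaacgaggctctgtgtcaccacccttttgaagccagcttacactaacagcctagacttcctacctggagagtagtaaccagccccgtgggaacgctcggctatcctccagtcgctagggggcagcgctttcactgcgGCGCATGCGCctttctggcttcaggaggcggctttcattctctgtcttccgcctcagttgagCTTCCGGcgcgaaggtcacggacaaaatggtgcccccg
Atp5g2: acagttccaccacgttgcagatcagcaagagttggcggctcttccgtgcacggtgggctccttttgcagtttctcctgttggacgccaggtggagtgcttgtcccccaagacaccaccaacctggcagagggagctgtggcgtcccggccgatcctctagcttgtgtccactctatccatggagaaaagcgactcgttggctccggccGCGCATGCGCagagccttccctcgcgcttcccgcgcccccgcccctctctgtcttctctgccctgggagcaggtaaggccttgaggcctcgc
The first base of the NRF1 match stood at -59 from the start site in Cycs, -162 in Cox6a1, -50 in Atp5k and -42 in Atp5g2.

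Knockout was set against wild type to find transcripts that depend on the Alox15 genotype. No member passed in either direction: 0 of 90 were called by edgeR's quasi-likelihood test at an adjusted p under 0.05, where 0% of all 12506 genes were called. At an unadjusted p under 0.05, 0 members were higher, against 0.448% of all genes, and 1 was lower, Cox7c, against 0.784%. The groups overlapped for all 90, whereas they did not overlap for 3.13% of all genes. Of the 90, 53 had a positive and 37 a negative log2 fold change, with a median of 0.07, against 0.01 for all genes tested. The quartiles ran from -0.09 to 0.22 for members and from -0.25 to 0.27 for all genes. The standard error of a member's log2 fold change had a median of 0.38, and the 5 members beyond 2-fold did not pass the test either. DESeq2 also called 0 of the 96 members it tested, with 2 at an unadjusted p under 0.05, against 1.71% of the 20692 genes it tested.

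By complex, positive log2 fold changes were found for 24 of 36 genes of complex I (median 0.14), 7 of 8 assembly factors (median 0.14), 2 of 4 genes of complex II (median -0.13) and 6 of 9 of complex III (median 0.08). They were found for 6 of 13 tested genes of complex IV (median -0.04) and 7 of 17 of complex V (median -0.03). These signs depended on which libraries entered. Without knockout 3, 79 of the 90 members were negative with a median of -0.45, against -0.05 over all genes, and 0 were called. Without wild type 1, 54 were negative with a median of -0.08. With the description letter as a covariate, which leaves knockout 1 alone against wild type, 69 were negative with a median of -0.23. Without knockout 2, 67 were positive with a median of 0.22, against -0.01 over all genes. With wild type 2 and knockout 3 both left out, which held the fewest mature neutrophil transcripts, 72 of 89 members were negative with a median of -0.33.

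**Figure D4:**
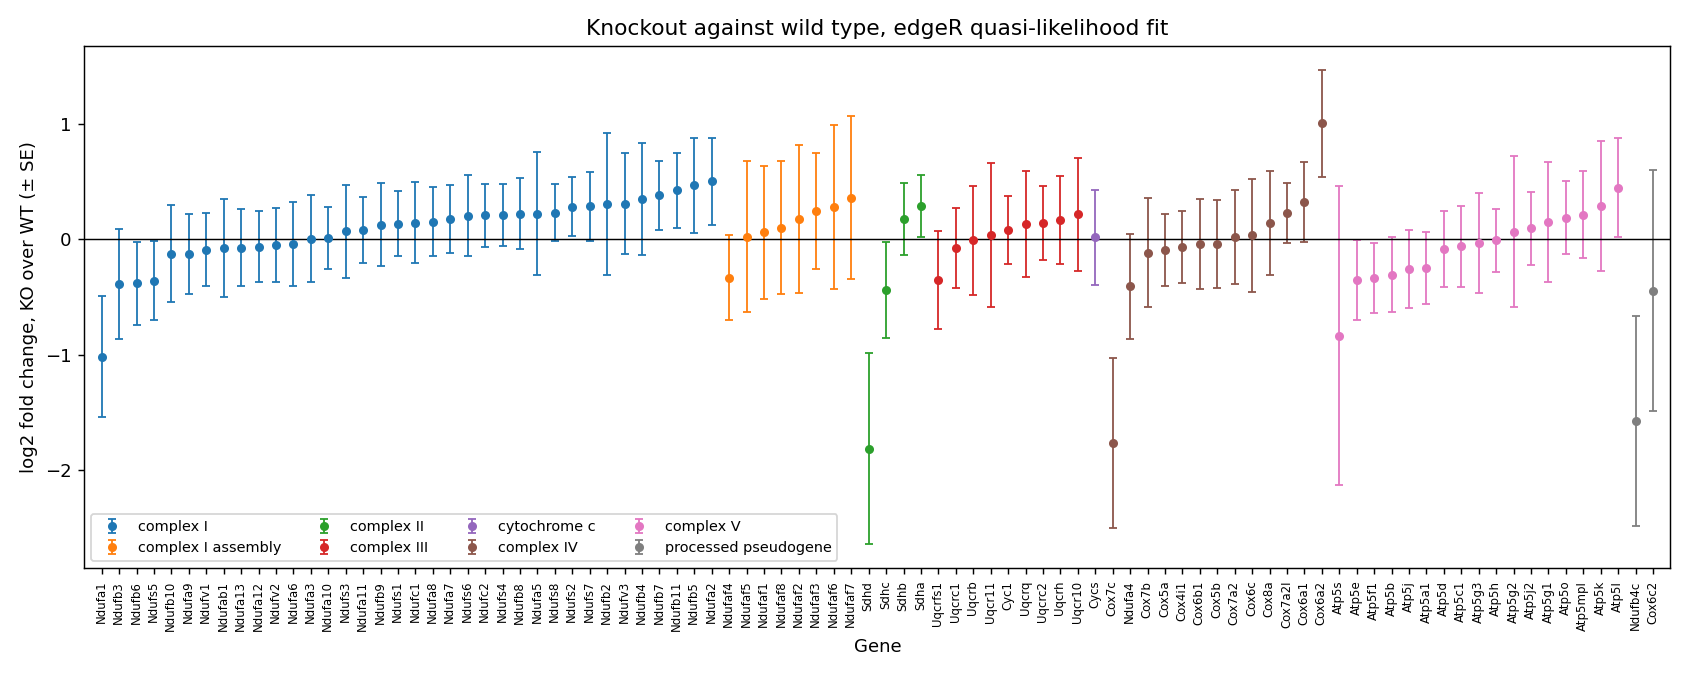
Log2 fold change, knockout over wild type, of each tested member (points) with its standard error (bars), coloured by complex, from the edgeR fit. Of the 90 points, 83 lie within 0.5 of 0, and Cox7c, Sdhd, Ndufa1 and the pseudogene Ndufb4c lie at or below -1, with Cox6a2 at 1.01.

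In complex I, the entry point for electrons from NADH, the members with the most counts were Ndufb8 and Ndufa2, both small accessory subunits. Ndufb8 had 295, 270.5 and 494 CPM in the knockouts, against 252, 352, 279 and 326 CPM in wild type. Ndufa2 stood at 329.9, 444 and 861 CPM in the knockouts, against 321, 334, 361 and 523 CPM in wild type, with a log2 fold change of 0.50 ± 0.38 (SE). Knockout 3 alone exceeded the wild-type range of Ndufb8, and knockout 1 lay inside the range of both genes. The other accessory subunits on the positive side with the smallest unadjusted p were Ndufb5, Ndufb7 and Ndufb11. Ndufb5 had 108, 84.2 and 219.7 CPM in the knockouts, against 59.5, 105, 83.0 and 149 CPM in wild type (0.47 ± 0.41). Ndufb7 stood at 168, 134 and 222 CPM in the knockouts, against 93.2, 129, 162 and 151 CPM in wild type (0.38 ± 0.30). Ndufb11 had 78.5, 67.4 and 141 CPM in the knockouts, against 58.0, 67.0, 69.3 and 91.1 CPM in wild type (0.43 ± 0.32). For each of the 3, knockout 3 was the highest library and knockout 2 lay within the wild-type range. Knockout 1 exceeded the wild-type range of Ndufb7 but not of Ndufb5 or Ndufb11.

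Ndufa1 (ENSMUSG00000016427), an X-linked accessory subunit needed for assembly of complex I, had the largest negative value in the complex. It lies on chromosome X from 37187588 to 37191163 (GRCm38, minus strand). Ndufa1 had 111, 57.3 and 153 CPM in the knockouts, against 70.5, 267, 199 and 331 CPM in wild type. Wild types 2 to 4 lay above all knockouts, and wild type 1 fell between the knockouts. The log2 fold change was -1.02 ± 0.52 (SE), with an unadjusted p of 0.0825 and an adjusted p of 0.99995 in edgeR. The other X-linked members, Cox7b and Ndufb11, did not share this order, with log2 fold changes of -0.11 ± 0.47 and 0.43 ± 0.32.

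The 7 core subunits that carry the redox centres of complex I had a median range of 1.96-fold over the libraries, against 2.43-fold for the other 29 genes of the complex. Ndufs8, an iron-sulfur subunit, was among the 3 members with the narrowest range and had 74.7, 83.6 and 84.5 CPM in the knockouts, against 74.7, 80.5, 63.4 and 56.7 CPM in wild type. Ndufs1, the largest subunit, had 76.6, 83.3 and 69.1 CPM in the knockouts, against 47.5, 79.2, 86.6 and 63.8 CPM in wild type. For both genes knockout 3 differed little from knockouts 1 and 2. Ndufs1 had 2363 counts in all and overlaps Eef1b2, with 23295, on the opposite strand, and whether counting used strand was not given. Ndufa10, an accessory subunit, had 152, 199 and 167 CPM in the knockouts, against 131, 186, 212 and 156 CPM in wild type, and its log2 fold change was 0.01 ± 0.27 (SE). Ndufb2, a small accessory subunit, had one of the widest ranges and had 109.6, 50.5 and 293 CPM in the knockouts, against 80.7, 114, 65.9 and 228 CPM in wild type. It was high in knockout 3 and wild type 4 and low in knockout 2 and wild type 3.

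In complex II the log2 fold changes of the catalytic subunits were positive and those of the membrane subunits negative, none past the test. Sdha, the flavoprotein that oxidises succinate, had 141, 197 and 194 CPM in the knockouts, against 172, 159, 138 and 109.9 CPM in wild type (0.29 ± 0.27, log2 fold change ± SE). Sdhb, the iron-sulfur subunit, had 131, 137 and 246 CPM in the knockouts, against 117, 142, 162 and 184 CPM in wild type (0.18 ± 0.31). Both overlapped between genotypes. The membrane anchor Sdhc had 52.9, 38.3 and 58.6 CPM in the knockouts, against 29.3, 71.7, 60.6 and 109.6 CPM in wild type (-0.44 ± 0.42).

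Sdhd (ENSMUSG00000000171), the other membrane anchor, lies on chromosome 9 from 50596357 to 50603812 (GRCm38, minus strand) and had few counts: 38, 7 and 10 in the knockouts, against 8, 104, 128 and 39 in wild type. Scaled, this came to 7.39, 2.14 and 1.95 CPM in the knockouts, against 2.39, 16.3, 25.4 and 10.3 CPM in wild type. Wild types 2 to 4 lay above all knockouts, and wild type 1 lay among them. Its log2 fold change was -1.82 ± 0.83 (SE), the largest in size among the members, with an unadjusted p of 0.0545 and an adjusted p of 0.99995 in edgeR. Without knockout 1 it was -2.73. With the description letter as a covariate, which leaves knockout 1 alone against wild type, it was -0.89.

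In complex III, Uqcrq and Uqcr11, small subunits at its periphery, had the most counts. Uqcrq had 509.9, 364 and 1119.6 CPM in the knockouts, against 376, 649, 473 and 918 CPM in wild type. Uqcr11 stood at 315, 256 and 1164 CPM in the knockouts, against 302, 555, 348 and 1049.7 CPM in wild type. For both, knockout 3 was highest and wild type 4 next, and their log2 fold changes were 0.14 ± 0.46 and 0.04 ± 0.62 (SE). Uqcrc2, a core subunit, did not follow them, with 121, 125 and 133 CPM in the knockouts, against 69.0, 155, 144 and 90.8 CPM in wild type. Cytochrome c, which Cycs encodes, had 87.7, 89.7 and 210.1 CPM in the knockouts, against 70.8, 137, 121 and 181 CPM in wild type, and averaged 129 ± 70.1 CPM in knockout (SD, n = 3) and 127 ± 45.5 CPM in wild type (SD, n = 4).

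Complex IV exists in forms built from paralogs that differ between tissues. The widely expressed forms were present in every library. Cox4i1 had 365, 428 and 569.6 CPM in the knockouts, against 322, 538, 485 and 557 CPM in wild type. Cox8a had 995, 871 and 2389 CPM in the knockouts, against 1086, 1229, 882 and 1948 CPM in wild type. Cox7a2 had 429, 348 and 985 CPM in the knockouts, against 463, 600.1, 507 and 746 CPM in wild type. Cox6b1 had 231, 148 and 407 CPM in the knockouts, against 176, 284, 256 and 362 CPM in wild type. Cox7b had 154, 89.4 and 359 CPM in the knockouts, against 127, 237, 215 and 289.9 CPM in wild type. All 5 overlapped between genotypes, with log2 fold changes from -0.11 to 0.14. Cox7a2l, which links complexes III and IV in supercomplexes, had 125, 134 and 196 CPM in the knockouts, against 134, 119, 141 and 124 CPM in wild type (0.23 ± 0.26, log2 fold change ± SE). Knockout 3 was above the other 6 libraries, which lay close together.

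Most tissue-restricted forms were absent or nearly so. Cox4i2, the lung and hypoxia form, and the testis forms Cox7b2 and Cox8c had 0 counts in all 7 libraries, which allows up to 0.530 to 0.929 CPM in a single library by a limit of 3 counts, counting error only. Cox6b2, another testis form, had 0 counts in the knockouts and 3 over wild type. Cox7a1, the heart and skeletal muscle form, had 0, 4 and 1 counts in the knockouts, against 1, 0, 7 and 12 in wild type. Cox8b, a muscle form, had 1, 2 and 1 counts in the knockouts, against 0, 2, 0 and 1 in wild type. Ndufa4l2, a hypoxia-induced paralog, had 5 counts in wild type 2 and 0 elsewhere. Its paralog Ndufa4, now assigned to complex IV, had 95.1, 41.0 and 68.6 CPM in the knockouts, against 41.5, 137, 119.6 and 63.3 CPM in wild type. The 7 rare forms from Cox4i2 to Ndufa4l2 and the pseudogenes Ndufa11b and Ndufs6b made up the 9 members that were not tested.

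Cox6a2 (ENSMUSG00000030785), known as the heart and skeletal muscle form of subunit VIa, was an exception. It lies on chromosome 7 from 128205435 to 128206387 (GRCm38, minus strand). It had 304, 338 and 872 counts in the knockouts, against 122, 458, 140 and 319 in wild type, or 59.1, 104 and 169.8 CPM in the knockouts, against 36.5, 71.7, 27.8 and 84.5 CPM in wild type. Knockouts 2 and 3 lay above all wild-type libraries and knockout 1 inside their range. The log2 fold change was 1.01 ± 0.47 (SE), the largest positive one among the members, with an unadjusted p of 0.0576 and an adjusted p of 0.99995 in edgeR. It was 0.48 without knockout 3 and 0.10 with the description letter as a covariate, which knockouts 2 and 3 share. The value of 0.10 thus sets knockout 1 alone against wild type. The gene overlaps Itgad on the opposite strand, which had 5 counts in all. The widely expressed paralog Cox6a1 had 679.8, 885 and 1385 CPM in the knockouts, against 737, 826, 612 and 966 CPM in wild type (0.32 ± 0.34). Of the counts of both paralogs, Cox6a2 took 7.998, 10.5 and 10.9% in the knockouts, against 4.71, 7.99, 4.35 and 8.04% in wild type.

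Cox7c (ENSMUSG00000017778), the member with the smallest unadjusted p, encodes subunit VIIc and lies on chromosome 13 from 86044816 to 86046904 (GRCm38, minus strand). Cox7c had 112, 53.0 and 186 CPM in the knockouts, against 57.7, 582, 435 and 520.2 CPM in wild type. Wild types 2 to 4 lay above all knockouts, and wild type 1 lay with knockout 2 at the bottom. It averaged 117 ± 66.5 CPM in knockout (SD, n = 3) and 399 ± 235 CPM in wild type (SD, n = 4). The log2 fold change was -1.77 ± 0.74 (SE), with an unadjusted p of 0.0406 and an adjusted p of 0.99995 in edgeR. It stayed between -2.34 and -1.42 whichever library was left out. With wild type 1 left out, 9 of the 90 members were lower in every knockout than in every wild-type library, against 5.11% of all genes, and 0 were higher, against 3.27%. These were Cox7c, Ndufa1, Sdhd, Ndufb6, Sdhc, Atp5a1, Atp5b, Atp5e and Atp5f1, so Cox7c was the single one from complex IV. Leaving out any other library gave 0 to 3 lower members, against 2.31 to 5.71% of all genes, and 0 to 4 higher ones, against 2.67 to 6.90% of all genes. Whether reads of Cox7c are shared with other copies was not tested.

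**Figure D5:**
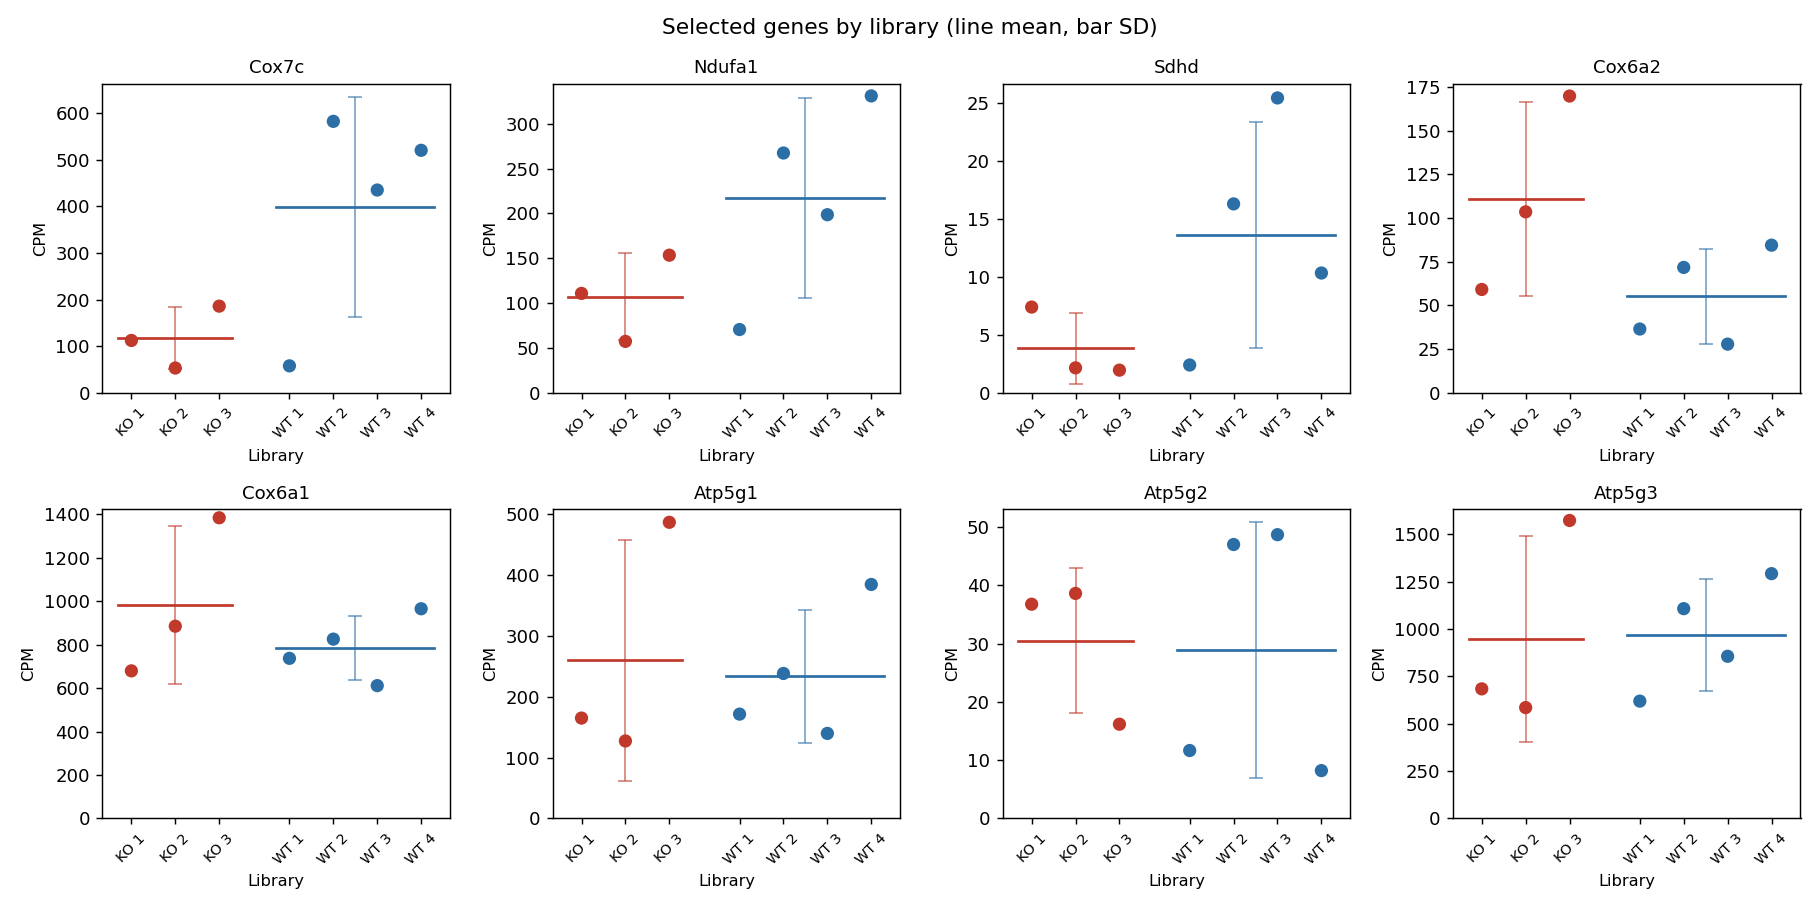
CPM by library (x axes) of Cox7c, Ndufa1, Sdhd, Cox6a2, Cox6a1 and the c-ring genes Atp5g1, Atp5g2 and Atp5g3, with lines at group means and bars of 1 SD. Wild type 1 lies among the knockouts for Cox7c, Ndufa1 and Sdhd, and Atp5g2 is low in knockout 3, where Atp5g1 and Atp5g3 are highest.

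In complex V, Atp5g1, Atp5g2 and Atp5g3 encode the same mature c-ring protein behind different import sequences, and their levels moved apart. Atp5g3 had 684, 585 and 1572 CPM in the knockouts, against 619, 1107, 856 and 1292 CPM in wild type. Atp5g1 stood at 165, 127 and 487 CPM in the knockouts, against 172, 238, 139.8 and 385 CPM in wild type. Both were highest in knockout 3 and next in wild type 4. Atp5g2 had 36.7, 38.6 and 16.2 CPM in the knockouts, against 11.7, 47.0, 48.7 and 8.21 CPM in wild type. It was low in those libraries and in wild type 1. Of the summed CPM of these 3 genes, Atp5g2 took 4.15, 5.14 and 0.779% in the knockouts, against 1.45, 3.37, 4.66 and 0.487% in wild type. Atp5g1 took 18.6, 17.0 and 23.5% in the knockouts, against 21.4, 17.1, 13.4 and 22.8% in wild type. Between genotypes all 3 overlapped, with log2 fold changes of 0.15 ± 0.52, 0.07 ± 0.65 and -0.03 ± 0.43 (SE) in the order of their numbers. The promoters of Atp5g2 and Atp5k printed above both hold the full NRF1 letters. Atp5k had 483, 342 and 1576 CPM in the knockouts, against 417, 625, 463 and 1113 CPM in wild type. It was highest in knockout 3 and wild type 4, where Atp5g2 was low. In wild type 1, where Atp5g2 was low too, Atp5k was below every library except knockout 2.

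Other ATP synthase genes were mixed. Atp5l, subunit g, which takes part in dimer formation as Atp5k does, had 821, 948 and 1860.2 CPM in the knockouts, against 780.2, 682, 634 and 1444 CPM in wild type (0.45 ± 0.43, log2 fold change ± SE). Atp5b, the catalytic beta subunit, had 578, 463 and 613 CPM in the knockouts, against 433, 887, 709.9 and 695 CPM in wild type (-0.31 ± 0.33). It was highest in wild type 2, whereas Atp5l and Atp5k were highest in knockout 3. Atp5f1, subunit b of the stator, had 110.4, 102 and 139 CPM in the knockouts, against 92.3, 169, 142 and 189.6 CPM in wild type (-0.34 ± 0.30). Atp5h, subunit d of the stator, had one of the narrowest ranges, with 209, 245 and 285 CPM in the knockouts, against 190.0, 260.0, 292 and 247 CPM in wild type.

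Of the pseudogenes, Ndufb4c had 20, 4 and 45 counts in the knockouts, against 9, 204, 29 and 58 in wild type, and Cox6c2 had 14.8, 3.98 and 24.5 CPM in the knockouts, against 0.896, 6.42, 23.6 and 48.2 CPM in wild type. Ndufb4c lies in Mroh5 on the same strand, and its reads may be shared with Ndufb4, so its log2 fold change of -1.58 ± 0.91 (SE) is uncertain. It was -0.76 without wild type 2, -2.49 without knockout 3 and -0.83 with a replicate block. Left out by the rule were 8 symbols containing -ps. Of these Ndufb1-ps held most counts, with 593, 181 and 834 in the knockouts, against 329, 1435, 777 and 1531 in wild type. The annotation types Ndufb1-ps as a long noncoding RNA from a bidirectional promoter and the others as processed pseudogenes.

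Other mitochondrial genes were not called either. Of 207 tested genes in 6 lists, edgeR called 0 higher and 0 lower, against 0% of all genes. At an unadjusted p under 0.05, 0 were higher, against 0.448% of all genes, and 1 was lower, against 0.784%. Positive log2 fold changes numbered 18 of 43 for assembly factors, 14 of 21 for the tricarboxylic acid cycle, 10 of 21 for mitochondrial transcription and biogenesis, 7 of 13 for carriers and uncoupling, 18 of 31 for import and dynamics and 40 of 78 for mitochondrial ribosomal proteins. Medians lay between -0.05 and 0.10, against 0.01 for all genes tested. The gene at an unadjusted p under 0.05 was Cox17, the copper chaperone that supplies complex IV, with 133, 96.2 and 151 CPM in the knockouts, against 156, 211, 194 and 289.9 CPM in wild type. The groups of Cox17 did not overlap. Of the 207 genes, 1 was lower without overlap, Cox17, and 3 were higher without overlap, Mrps26, Mrps9 and Suclg1, against 1.57% of all genes in each direction. The log2 fold change of Cox17 was -0.75 ± 0.31 (SE, edgeR adjusted p = 0.99995). Mrps26, of the small mitochondrial ribosomal subunit, had the smallest unadjusted p on the positive side, with 84.8, 80.2 and 82.8 CPM in the knockouts, against 32.0, 65.1, 66.9 and 36.5 CPM in wild type (0.72 ± 0.33), and Slc25a5, an ADP/ATP carrier, had 98.4, 45.6 and 122 CPM in the knockouts, against 79.8, 165, 169 and 151 CPM in wild type (-0.67 ± 0.40).

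The summed levels of those lists ordered the libraries in part like the members. Mitochondrial ribosomal proteins summed to 3239, 3169 and 4724 CPM in the knockouts, against 2717, 3993, 3693 and 4056 CPM in wild type, again highest in knockout 3 and lowest in wild type 1. Import and dynamics genes summed to 3820.2, 4419 and 7353 CPM in the knockouts, against 3362, 5303, 4904 and 6159 CPM in wild type. Tricarboxylic acid cycle genes varied less, with 1653, 1650.3 and 1915 CPM in the knockouts, against 1391, 1962, 1980.4 and 1501 CPM in wild type. For them wild type 3 was highest, and wild type 4, high for the respiratory complexes, was below all 3 knockouts. Assembly factors summed to 1271, 1172 and 1666 CPM in the knockouts, against 1191, 1619.9, 1515 and 1639 CPM in wild type, and carriers and uncoupling genes to 1442, 1234 and 2229 CPM in the knockouts, against 1307, 1680.4, 1608 and 2298 CPM in wild type, which were highest in wild type 4. Transcription and biogenesis genes, such as Tfam and Nrf1, summed to 858, 919 and 958 CPM in the knockouts, against 858, 1014, 895 and 993 CPM in wild type, with the narrowest spread among the 6 lists.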

How the data were processed

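RNA of granulocytes was made into libraries with a Lexogen QuantSeq kit, per the labels' protocols. The authors deposited whole-number counts per gene for 7 libraries. The submitters' processing notes name RSEM 1.2.3, DESeq2 and mm10 without roles, and no source used here states whether counts are rounded estimates, which annotation was used, or how strand and multimapped reads were treated. Counts were scaled by TMM in edgeR 4.0.16 (R 4.3.3). The 12506 genes kept by its expression filter held 99.6% of counts and were compared, 3 knockout against 4 wild-type libraries, by the quasi-likelihood test with Benjamini-Hochberg adjustment over all of them at 0.05. The fit was tested on simulated data, but no outcome of that is reported or relied on here. Alternatives were RLE factors, no filter, DESeq2 1.42.0, libraries left out, a replicate block and the description letter as a covariate. With that letter in the fit the genotype difference rests on knockout 1 alone, as knockouts 2 and 3 share another letter. Log2 deviations used a prior count of 2. Gene positions came from GENCODE, and promoters, on GRCm38.p6, from RefSeq.

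Members and lists were chosen with earlier results of these data known. Named members were those with the highest level in each complex, the smallest unadjusted p in each direction, tissue-restricted paralogs and the c-ring genes, and the widest and narrowest ranges. Atp5b, Atp5k, Sdhc, Uqcrc2, Ndufs1 and Cox6c2 were added after their values were seen, as were the counts of members whose groups did not overlap with a library left out. Intervals and limits cover counting error only, and tags without molecular identifiers are not independent molecules.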

Additional observations from a re-analysis of the deposited data

Results flagged for a closer look

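Cox7c in wild type 1 stood far from the other wild-type libraries, at 57.7 CPM against 435 to 582 CPM in wild types 2 to 4. Among 41 groups of log2 values examined by Dixon's criterion it was the single one marked, and chance marks about 1 in 20. The gap over the range was 0.874 on the log2 scale, above the critical value, but 0.719 on the CPM scale, below it, so the mark depends on the log scale. With that library left out, the log2 fold change of Cox7c was -2.11, against -1.77 with all 7 libraries.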

How the results depend on the processing

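No member was called under any alternative run: other scaling, no filter on low counts, DESeq2, each library left out, a replicate block, the description letter as a covariate, and wild type 2 and knockout 3 both left out. Over all genes edgeR called 0 in each, with 80 to 445 genes at an unadjusted p under 0.05, and DESeq2 called 1, Impdh2-ps, which is no member. The mean log2 summed level, knockout minus wild type, ran from -0.38 to 0.21 with 1 library left out. Signs of the small log2 fold changes were less stable; no value below passed a test, and the cause of each reversal was not tested. Of 32 named members, Ndufa10 -0.00011 reversed with RLE factors, Ndufa10 -0.00072 with DESeq2 and Ndufa10 -0.0091 without the filter. The description letter as a covariate left knockout 1 alone against wild type. With the description letter as a covariate 16 reversed: Atp5g1 -0.50, Atp5l -0.11, Cox6a1 -0.21, Cox7a2 -0.43, Cox7a2l -0.052, Cox8a -0.37, Cycs -0.54, Ndufa10 -0.17, Ndufa2 -0.22, Ndufa4 0.071, Ndufb2 -0.16, Ndufb8 -0.036, Sdha -0.041, Sdhb -0.21, Uqcr11 -0.84 and Uqcrq -0.24. With wild type 2 and knockout 3 both left out 15 reversed: Atp5g1 -0.72, Atp5l -0.16, Cox6a1 -0.030, Cox7a2 -0.61, Cox7a2l -0.085, Cox8a -0.54, Cycs -0.54, Ndufa2 -0.10, Ndufb11 -0.045, Ndufb2 -0.69, Ndufb5 -0.065, Ndufb8 -0.064, Sdhb -0.25, Uqcr11 -1.04 and Uqcrq -0.48. With 1 library left out, the values of all 32 ran as follows: Atp5f1 -0.55 to -0.19, Atp5g1 -0.74 to 0.55, Atp5g2 -0.27 to 0.44, Atp5g3 -0.68 to 0.22, Atp5h -0.19 to 0.098, Atp5l -0.065 to 0.82, Cox4i1 -0.33 to 0.070, Cox6a1 -0.071 to 0.53, Cox6a2 0.48 to 1.31, Cox6b1 -0.57 to 0.24, Cox7a2 -0.64 to 0.29, Cox7a2l -0.061 to 0.35, Cox7b -0.90 to 0.24, Cox7c -2.34 to -1.42, Cox8a -0.53 to 0.45, Cycs -0.59 to 0.27, Ndufa1 -1.44 to -0.72, Ndufa10 -0.11 to 0.13, Ndufa2 -0.054 to 0.77, Ndufa4 -0.72 to -0.13, Ndufb11 -0.031 to 0.62, Ndufb2 -0.67 to 0.84, Ndufb4c -2.49 to -0.76, Ndufb5 -0.11 to 0.76, Ndufb7 0.11 to 0.54, Ndufb8 -0.16 to 0.38, Ndufs8 0.14 to 0.32, Sdha 0.16 to 0.44, Sdhb -0.24 to 0.34, Sdhd -2.73 to -1.33, Uqcr11 -1.05 to 0.57, Uqcrq -0.53 to 0.44. Same-numbered libraries correlated at 0.35, -0.22 and -0.18 in their deviations from group means. Pairs with different numbers ran from -0.48 to 0.47, so these few values cannot decide whether the numbers pair libraries. A replicate block left 0 calls, with 80 genes at an unadjusted p under 0.05, and reversed Atp5g2 -0.11, Atp5g3 0.037, Atp5h 0.0033, Cox4i1 0.028, Cox6b1 0.050 and Ndufa10 -0.011. Depth was 3228292 to 5657192 counts, which limits statements on members with few counts such as Sdhd.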
